A study of Rattus norvegicus with 6 samples.

Results

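Complex I genes were taken as every row of the arrays whose gene symbol begins with Nduf, read from the symbol in parentheses in the annotation of each array file, or else from the symbol in the authors' averaged matrix. The rule found 44 rows, 36 by the first symbol and 8 by the second only, out of the 26419 features of an array. These rows stood for 40 genes. Where a gene had 2 rows (4 genes), the brighter row was described, and all 44 rows summarised 5 probes each. The 40 genes held 7 core catalytic subunits, 9 accessory subunits of the matrix arm, 17 accessory subunits of the membrane arm, 3 copies named beside subunits (Ndufa10l1, Ndufb4l1 and Ndufv3-ps1) and 4 assembly factors (Ndufaf1 to Ndufaf4).

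The tissue was labelled as cerebellum of male Sprague-Dawley rats aged 8 to 10 weeks. After a fast of 12 h, rats of the alcohol group received 40% alcohol by gavage at 15 ml/kg, and rats of the brine group received the same volume of saline. Each group had 3 pools, each pool combined the tissue of 3 rats, and each pool was measured on 1 single-colour NimbleGen array with Cy3-labelled cDNA. How long after gavage the tissue was taken is not stated in the labels. Values are RMA intensities on the log2 scale, and a difference is the alcohol mean minus the brine mean. Every p-value and SE rests on how much pools of a group varied, and limma pulls each gene's variance toward a value set by all features. An SE is thus not the gene's own spread alone. Ndufa6, for example, had SDs of 0.064 in alcohol pools and 0.057 in brine pools, and an SE of 0.16. The variation among rats inside a pool cannot be seen.

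Complex I (NADH:ubiquinone oxidoreductase) is the entry enzyme of the mitochondrial respiratory chain. Its matrix arm takes electrons from NADH and passes them along iron-sulfur clusters to ubiquinone, and its membrane arm pumps protons. The core of the membrane arm is encoded in mitochondrial DNA; those genes were not analysed here, and every gene described is nuclear. Oxidation of ethanol and acetaldehyde produces NADH, the substrate of the enzyme. The comparison asks whether the transcripts of this enzyme differed in this tissue after alcohol.

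Promoter windows of RefSeq (assembly GRCr8, 250 bases before to 50 after the start) were matched to 35 of the 40 genes, 32 by gene identifier and 3 by symbol. On the arrays, 4 genes had all alcohol values below their brine values. The window of 1 of them, Ndufaf3, held no match to any motif counted below and is not shown. Shown are the other 3 (Ndufb7, Ndufa6 and Ndufs4) and the core subunit Ndufs1. Each window has 300 bases, runs 5′ to 3′ along the minus strand, and has in capitals every match to CCGGAAG (ETS factors, including GABP) or AAGATGGC (YY1) on either strand. The windows lie at chr19:41477242-41477541 (Ndufb7), chr7:115750268-115750567 (Ndufa6), chr2:47794865-47795164 (Ndufs4) and chr9:72073556-72073855 (Ndufs1).
Ndufb7: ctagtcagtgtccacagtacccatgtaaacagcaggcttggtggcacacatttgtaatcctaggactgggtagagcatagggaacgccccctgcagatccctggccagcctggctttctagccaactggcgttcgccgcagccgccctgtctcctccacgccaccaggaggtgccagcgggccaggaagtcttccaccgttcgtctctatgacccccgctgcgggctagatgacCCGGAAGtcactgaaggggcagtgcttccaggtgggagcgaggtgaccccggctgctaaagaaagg
Ndufa6: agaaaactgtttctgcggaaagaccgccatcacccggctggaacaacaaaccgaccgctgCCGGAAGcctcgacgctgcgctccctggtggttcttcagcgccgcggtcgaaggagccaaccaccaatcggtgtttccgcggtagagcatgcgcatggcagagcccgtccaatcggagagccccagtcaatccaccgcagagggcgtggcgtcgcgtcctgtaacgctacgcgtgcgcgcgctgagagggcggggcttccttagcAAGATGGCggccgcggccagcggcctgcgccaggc
Ndufs4: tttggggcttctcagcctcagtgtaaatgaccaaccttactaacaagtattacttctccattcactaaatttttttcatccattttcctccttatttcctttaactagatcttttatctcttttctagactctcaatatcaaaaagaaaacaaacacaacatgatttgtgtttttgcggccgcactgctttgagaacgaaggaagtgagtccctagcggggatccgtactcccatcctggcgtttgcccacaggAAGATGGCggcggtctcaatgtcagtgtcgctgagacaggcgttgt
Ndufs1: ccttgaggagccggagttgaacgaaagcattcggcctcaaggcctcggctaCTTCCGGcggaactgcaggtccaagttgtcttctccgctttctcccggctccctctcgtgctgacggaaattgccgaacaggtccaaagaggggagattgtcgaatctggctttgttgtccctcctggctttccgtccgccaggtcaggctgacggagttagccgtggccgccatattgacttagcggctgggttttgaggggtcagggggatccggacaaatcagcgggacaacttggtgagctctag

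The letters AAGATGGC stood in 7 of the 35 windows (20%), against 5.86% of the 8445 promoters of genes above the median level and 3.17% of all 33469 promoters. All 7 matches ran in the direction of the gene and began 4 to 26 bases after the start, as in Ndufa6 (15 bases) and Ndufs4 (4 bases). The 7 genes were Ndufs7, Ndufa2, Ndufa6, Ndufa9, Ndufs4, Ndufs6 and Ndufb8, of which 5 are accessory subunits of the matrix arm and Ndufs7 is a core subunit. CCGGAAG stood in 8 windows (22.9%), against 18.2% of the promoters of genes above the median level and 8.75% of all promoters. In Ndufb7 it began 16 bases before the start, and in Ndufs1 it was read on the opposite strand 199 bases before. The NRF1 letters, GCGCA followed by its reverse complement TGCGC, stood in 2 windows (5.71%, Ndufaf4 and Ndufa11), against 2% and 0.852%. Sp1 letters (GGGCGG) stood in 16 windows (45.7%, against 63.3% and 33.1%) and TATAAA in 3 (8.57%, against 6.5% and 14.2%). Matches were searched on both strands, and no 2 of these motifs contain one another. A match describes letters only, and whether a factor bound there was not measured.

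The 6 pools did not form 2 clean groups of cerebellar tissue, which bears on every comparison below. Alcohol pool 2 and brine pool 1 stood apart from the other 4 pools in the markers below. The first principal component over all features held 69.6% of the variance. Of 7 Purkinje cell markers, 6 were lower in these 2 pools than in all other 4, and 0 were below an intensity of 50 in both. Pcp4 overlapped, at 14.50 and 14.47 in the 2 pools, against 14.50 to 14.93 in the other 4. The median of the 7 was 9.82 to 9.94 in these 2 pools, against 14.08 to 14.23 in the other 4. Their summed intensity, Pcp4 included, was 28539 to 28630, against 114265 to 125302. All 10 granule neuron markers were lower in the 2 pools, with a median of 8.45 to 8.88 against 13.07 to 13.30, a summed intensity of 5162 to 5933 against 107126 to 115836, and Cbln3 below an intensity of 50 in both. Levels under an intensity of 50 are taken as low throughout, after the limit of the authors' value table. Of 9 markers of hindbrain outside the cerebellum, 6 were higher in the 2 pools, with a summed intensity of 5286 to 6489 against 592 to 815. In the other 4 pools 6 of these 9 genes, Hoxa2 and Tph2 among them, were below 50. All 8 oligodendrocyte markers were higher in the 2 pools, with a median of 14.34 to 14.37 against 12.40 to 12.92. The label cerebellum is thus not borne out in these 2 pools by the granule neuron markers and by 6 of the 7 Purkinje cell markers. Because 1 such pool is in each group, differences are also given within the 4 pools and within the 2 pools. Of 5 choroid plexus markers, 1 (Ttr) separated the treatment groups, in a way this split does not balance. Folr1, Otx2, Clic6 and Kl overlapped between the groups. Otx2, Clic6 and Kl were lower in the 2 pools than in all other 4. The summed intensity of the 5 was 14689, 824 and 1311 in alcohol pools 1, 2 and 3, against 403, 1352 and 1220 in brine pools 1, 2 and 3, and their median difference was 0.39, with 3 higher and 2 lower. Ttr, the transthyretin of choroid plexus, was at 13.67, 9.04 and 7.65 in alcohol pools, against 6.78, 7.55 and 6.78 in brine pools, above brine in all 3 alcohol pools, by a mean of 3.08. The part of choroid plexus in the differences below was not tested. In bulk tissue, fewer cells of a type and less RNA per cell cannot be told apart.

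The complex I genes varied less over the arrays than features at large, and most averaged higher in the 2 pools low in cerebellar markers. Their range over the 6 arrays had a median of 0.47, against 0.74 for features above the median level and 0.91 for all features. The genes were also brighter, with a median level of 12.08, against 10.31 for features above the median level. Among the 4 related lists described last, median ranges were 0.35 (mitochondrial content), 0.47 (other assembly genes), 0.50 (biogenesis regulators) and 0.51 (NADH-linked enzymes), so a narrow range was not particular to complex I. A range above 1 log2 unit was seen in 2 of the 40 genes (5%), against 35.1% of features above the median level and 44.0% of all features. The smallest range was 0.13, in Ndufb11, a subunit of the membrane arm. The 2 genes above 1 were assembly factors, Ndufaf1 and Ndufaf2. The median difference between the 2 pools low in cerebellar markers and the other 4 was 0.17, with a range of -0.25 to 0.75. Of the 40 genes, 31 averaged higher in these 2 pools, against 12239 of all 26419 features and 6300 of the 13209 above the median level. Both pools lay above all 4 others for 15 genes (37.5%), against 31.2% of features above the median level and 23.4% of all features. In the related lists this share was 46.2% (mitochondrial content), 30.8% (other assembly genes), 7.69% (biogenesis regulators) and 57.9% (NADH-linked enzymes). Both pools lay below all 4 others for Ndufa7, Ndufa13 and Ndufc2 (7.5%), against 34.6% and 25.1%.

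**Figure D1:**
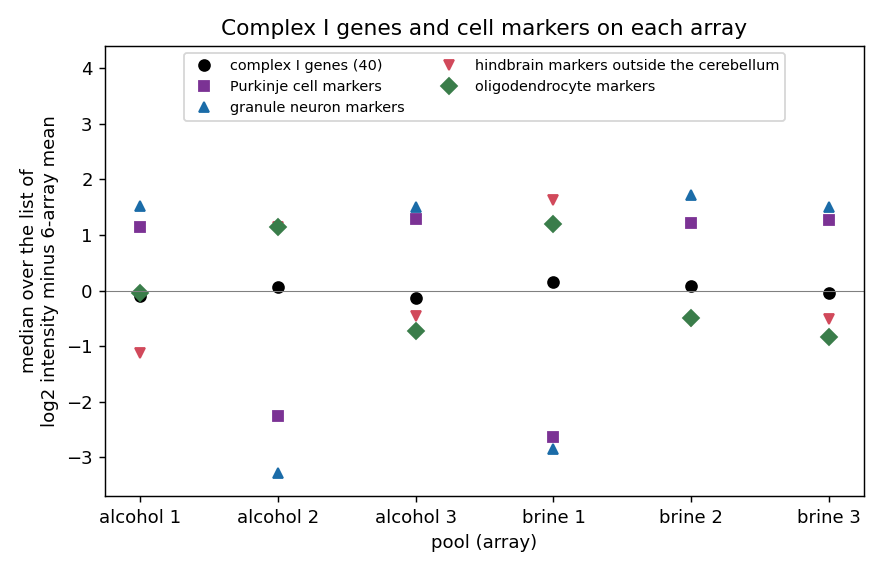
Median over each list of the log2 intensity minus the mean over the 6 arrays (vertical axis) on each of the 6 pools (horizontal axis), for the 40 complex I genes and for 4 marker lists. The complex I genes stayed between -0.13 and 0.15, while the granule neuron markers were at -3.29 in alcohol pool 2 and -2.86 in brine pool 1, and the hindbrain markers at 1.14 and 1.62.

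With alcohol, 32 of the 40 complex I genes had a lower mean and 8 a higher one, but none of the differences passed the threshold. The 80% that were lower compare with 59.1% of features above the median level and 54.1% of all 26419 features. The median difference was -0.11, against -0.04 for features above the median level and -0.02 for all features. Centring each array on its median left 26 of the 40 lower and a median of -0.08, against a median of 0.0059 over all features. The share of all features lower after centring was not counted, and the shares above are without centring. The groups overlapped: relative to the mean of the 6 arrays, the genes' median stood at -0.10, 0.06 and -0.13 in alcohol pools 1, 2 and 3, against 0.15, 0.08 and -0.04 in brine pools 1, 2 and 3. Alcohol pool 2 thus lay above brine pool 3. Without 1 pool the median difference ran from -0.17 (without brine pool 3) to -0.05 (without alcohol pool 1), and it was -0.06 without brine pool 1 or without brine pool 2.

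In limma's test over all features, 0 of the 40 genes had an adjusted p under 0.05, and neither did any of the 26419 features (0.0% of all and of those above the median level). The smallest adjusted p among the 40 was 1.00. An unadjusted p under 0.05 was reached by 1 gene in the lower direction (Ndufb7), against 1.25% of all features and 0.333% of those above the median level. In the higher direction it was reached by 0 genes, against 2.65% and 0.855%. The 3 alcohol values all lay below the 3 brine values for 4 genes, Ndufb7, Ndufaf3, Ndufa6 and Ndufs4, which is 10% of the genes, against 4.36% of all features and 4.27% of those above the median level. For 0 genes did they all lie above (4.39% and 2.10%). These 4 genes carry no test of their own beyond limma's.

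**Figure D2:**
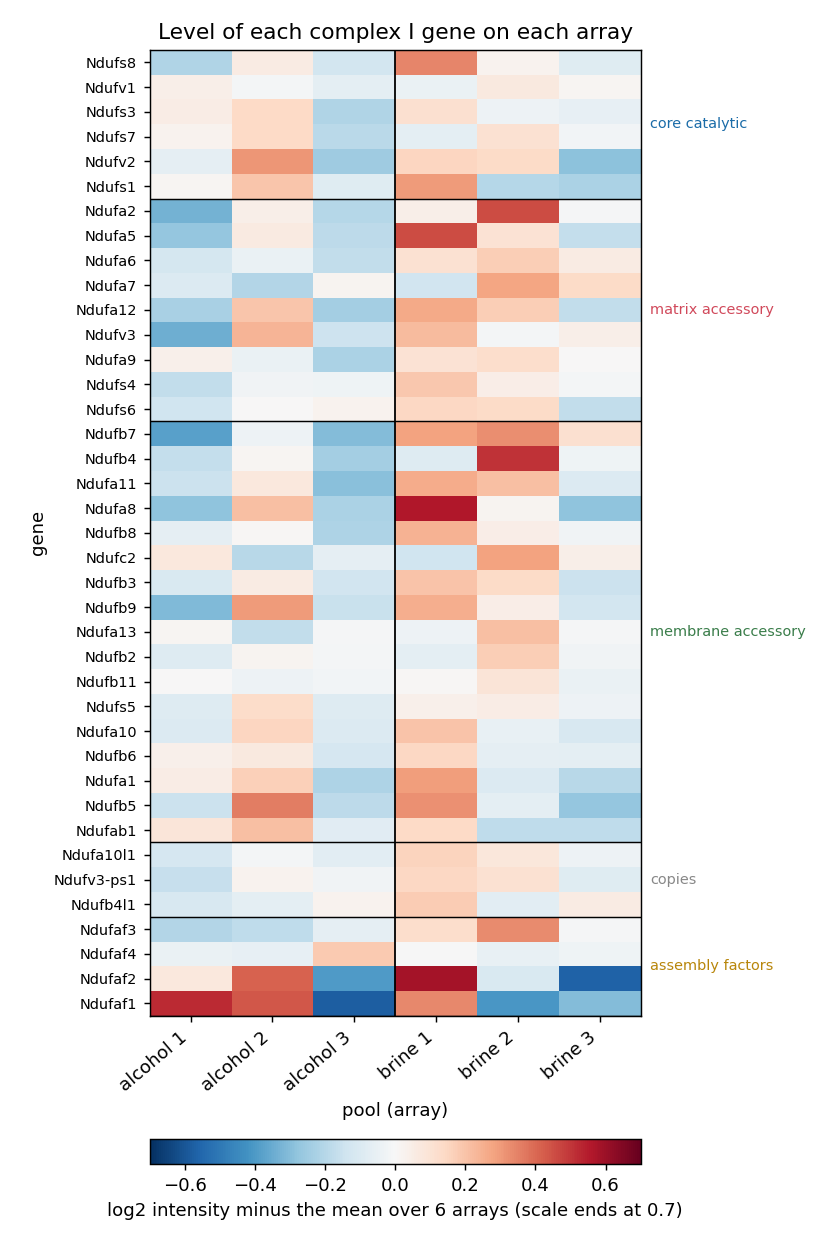
Log2 intensity minus the gene's mean over the 6 arrays (colour) for 39 of the 40 complex I genes (rows, ordered within each role by difference) on each pool (columns, alcohol left of brine). Brine pool 1 was the highest array for 17 genes and brine pool 2 for 12, while alcohol pools 1 and 3 were the lowest for 13 each, and Ndufaf1 and Ndufaf2 have the strongest colours.

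The 7 core catalytic subunits, which hold the redox centres and the ubiquinone site, had a median difference of -0.01, with 5 lower and 2 higher with alcohol. Ndufs1, the large iron-sulfur subunit of the NADH-oxidising module, was at 13.02, 13.19 and 12.92 in alcohol pools 1, 2 and 3, against 13.30, 12.80 and 12.78 in brine pools 1, 2 and 3. The highest value of each group came from its pool low in cerebellar markers, and the groups overlapped. The difference was 0.08 (SE 0.21, 95% interval -0.43 to 0.60).
Ndufv1, which binds NADH and the flavin cofactor, was at 12.32, 12.27 and 12.22 in alcohol pools, against 12.24, 12.36 and 12.30 in brine pools. All 6 values lay within 0.14 of each other. The difference was -0.03 (SE 0.16, interval -0.40 to 0.35). Ndufv2, an iron-sulfur subunit beside it, was at 12.55, 12.92 and 12.37 in alcohol pools, against 12.76, 12.75 and 12.33 in brine pools. Its means were 12.61 ± 0.28 in alcohol pools and 12.61 ± 0.25 in brine pools (SD, n = 3 each), and the interval of the difference was -0.56 to 0.56.

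Ndufs7, which carries the iron-sulfur cluster next to ubiquinone, was at 10.52, 10.63 and 10.30 in alcohol pools, against 10.42, 10.60 and 10.47 in brine pools. The groups overlapped, and the difference was -0.01 (SE 0.17). Ndufs3, a structural core subunit of the matrix arm, was at 12.20, 12.29 and 11.94 in alcohol pools, against 12.26, 12.12 and 12.09 in brine pools. Its lowest value was in alcohol pool 3, and the difference was -0.01 (SE 0.18). Ndufs8, an iron-sulfur subunit next to the membrane, was at 9.77, 10.03 and 9.85 in alcohol pools, against 10.32, 10.00 and 9.90 in brine pools. Only alcohol pool 2 reached into the brine range, and the difference was -0.19 (SE 0.19, interval -0.66 to 0.28) and -0.066 without brine pool 1. In 5 of the 7, Ndufs1, Ndufs3, Ndufs8 and Ndufv2 among them, both pools low in cerebellar markers lay above the other 4.

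**Figure D3:**
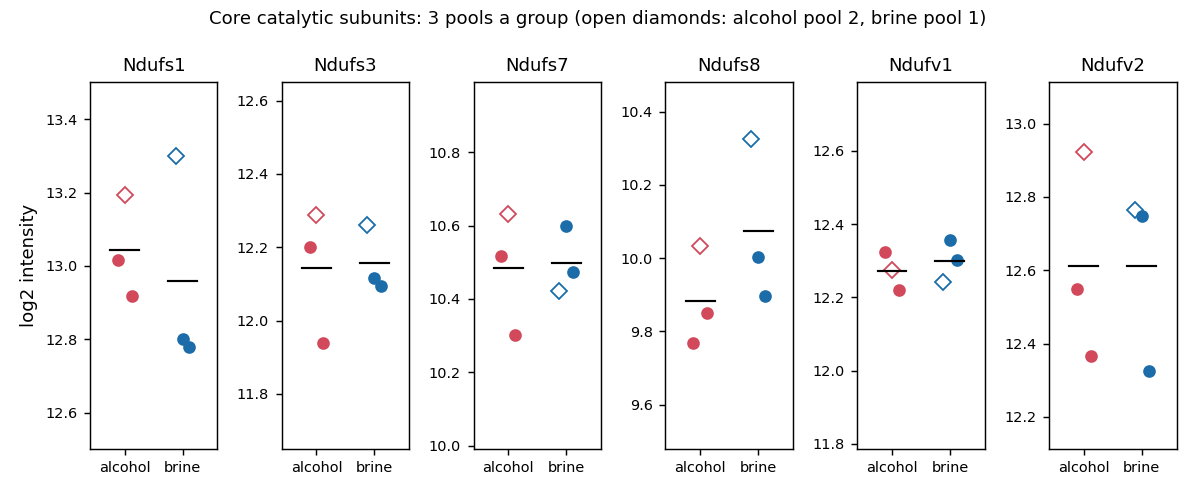
Log2 intensity (vertical axis, spanning 1 unit in every panel) of 6 of the 7 core catalytic subunits in the 3 alcohol pools (left) and 3 brine pools (right). Lines are group means, open diamonds mark alcohol pool 2 and brine pool 1, and the groups overlap in every panel, with Ndufv1 spread over 0.14.

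The 9 genes counted as accessory subunits of the matrix arm all had lower means with alcohol. Of all features 54.1% were lower, and 59.1% of those above the median level. Ndufab1, the acyl carrier protein, was counted with the membrane arm and had a higher mean (0.14). Their median difference was -0.18 and their differences ran from -0.33 to -0.07, and 0 of the 9 passed the threshold. In 8 of the 9 the mean was lower within the 4 pools high in cerebellar markers and also between the 2 pools low in them. In both comparisons 32.4% of all features were lower, and 37.8% of those above the median level. The exception among the 9 genes was Ndufv3, a small subunit of the NADH-oxidising module, at -0.26 within the 4 pools and 0.02 between the 2. Ndufa2, a subunit with a thioredoxin-like fold, was at 10.42, 10.79 and 10.56 in alcohol pools, against 10.80, 11.21 and 10.74 in brine pools. Alcohol pool 2 exceeded brine pool 3, so the groups overlapped. The difference was -0.33 (SE 0.21, interval -0.83 to 0.18, unadjusted p = 0.169 in limma's test), and -0.18 without brine pool 2.
Ndufa6, which carries an acyl carrier protein on the matrix arm, was at 11.98, 12.05 and 11.93 in alcohol pools, against 12.21, 12.27 and 12.16 in brine pools. The groups did not overlap, and the gap between them was about as wide as the range within each. The difference was -0.23 (SE 0.16, interval -0.60 to 0.15, unadjusted p = 0.195 in limma's test). Its promoter window, shown above, holds both motifs. Ndufs4, whose loss in humans causes Leigh syndrome, was at 10.85, 11.00 and 11.00 in alcohol pools, against 11.22, 11.07 and 11.01 in brine pools. The groups did not overlap, but alcohol pools 2 and 3 lay close under brine pool 3, and the difference was -0.15 (SE 0.16), or -0.093 without brine pool 1.

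Ndufa5, a subunit of the ubiquinone-reducing module, varied more, at 11.37, 11.70 and 11.45 in alcohol pools, against 12.09, 11.74 and 11.47 in brine pools. Brine pool 1 was the highest, and the difference was -0.26 (SE 0.22), or -0.095 without that pool. The difference was -0.19 for Ndufa7, -0.18 for Ndufa12, -0.17 for Ndufv3 and -0.15 for Ndufa9, all with overlapping groups. The row named Ndufs6, after a zinc-binding subunit of the NADH-oxidising module, had a difference of -0.07. By its gene identifier this row is now assigned to the pseudogene Ndufs6-ps1, while a row under a placeholder name, outside the rule, is assigned to Ndufs6. That row was at 12.85, 13.05 and 13.08 in alcohol pools, against 13.22, 13.11 and 12.93 in brine pools, and its difference was -0.09 (SE 0.17). Near-identical copies may share signal on these probes, so which of them was measured is uncertain.

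Of the 17 accessory subunits of the membrane arm, 14 had a lower and 3 a higher mean with alcohol, with a median difference of -0.11. Ndufb7, a CHCH-domain subunit on the intermembrane-space face, had the largest difference of the 40 genes. It was at 10.33, 10.68 and 10.41 in alcohol pools, against 10.99, 11.04 and 10.83 in brine pools. Every alcohol value lay below every brine value. The means were 10.47 ± 0.18 in alcohol pools and 10.95 ± 0.11 in brine pools (SD, n = 3 each), a difference of -0.48 (SE 0.18, interval -0.91 to -0.05), which is 0.72-fold. The unadjusted p was 0.035 and the adjusted p 1.00 in limma's test, so Ndufb7 did not pass. The difference was -0.56 within the 4 pools high in cerebellar markers and -0.32 between the 2 pools low in them. With a term for these 2 pools the SE became 0.13 and limma's adjusted p 0.452. Without 1 pool the difference ran from -0.58 to -0.41. Ndufb7, Ndufa6, Ndufaf3 and Ndufa10l1 were the 4 of the 40 genes whose difference stayed within 1.5 times its value whichever pool was left out.

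**Figure D4:**
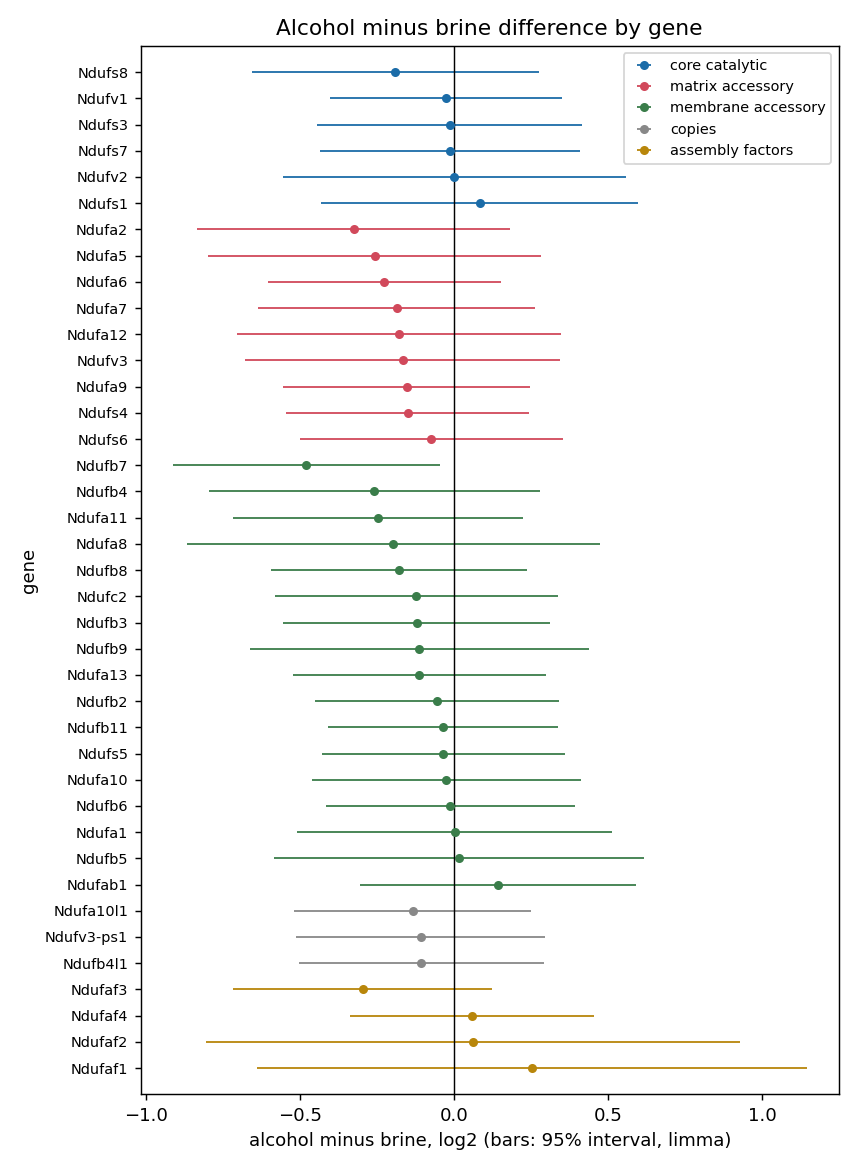
Alcohol minus brine difference in log2 intensity (horizontal axis, points) with its 95% interval from limma (bars) for 39 of the 40 genes (vertical axis), coloured by role. The interval of Ndufb7, -0.91 to -0.05, is the 1 interval that does not reach 0, and all 9 accessory subunits of the matrix arm have points left of 0.

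Ndufa11, which in mammals contacts complex III in respiratory supercomplexes, was at 10.79, 11.01 and 10.65 in alcohol pools, against 11.20, 11.15 and 10.84 in brine pools. Only alcohol pool 2 reached into the brine range, and the difference was -0.25 (SE 0.19), or -0.16 without alcohol pool 3. Ndufb4, a subunit of the far end of the membrane arm, was at 12.51, 12.69 and 12.44 in alcohol pools, against 12.59, 13.19 and 12.65 in brine pools. Brine pool 2 alone stood high, and the difference was -0.26 (SE 0.22, and -0.070 without that pool) in this row and -0.04 in the dimmer row of the gene. Ndufa8, another CHCH-domain subunit, was at 10.49, 10.98 and 10.55 in alcohol pools, against 11.33, 10.79 and 10.49 in brine pools. It had the widest range of any subunit, 0.84, and averaged 0.58 higher in the 2 pools low in cerebellar markers than in the other 4. Its alcohol minus brine difference was -0.20 (SE 0.28).
Ndufab1, the mitochondrial acyl carrier protein, which also serves fatty acid synthesis, was at 13.08, 13.21 and 12.92 in alcohol pools, against 13.14, 12.83 and 12.82 in brine pools. It was higher with alcohol within both kinds of pool, by 0.18 within the 4 and 0.07 between the 2, and the overall difference was 0.14 (SE 0.19), with 0.073 without alcohol pool 2 and 0.25 without brine pool 1. Brine pool 1 overlapped the alcohol range. Ndufb3, a small membrane subunit, was at 13.89, 14.06 and 13.87 in alcohol pools, against 14.20, 14.14 and 13.85 in brine pools, a difference of -0.12 (SE 0.18). The row named Ndufa13, after the subunit also known as GRIM-19 in cell death studies, was at 12.07, 11.88 and 12.04 in alcohol pools, against 12.02, 12.27 and 12.05 in brine pools. Its difference was -0.11 (SE 0.17), and by gene identifier the row is now assigned to the pseudogene Ndufa13-ps1. Ndufb8, often used as a protein marker of assembled complex I, was at 12.89, 12.96 and 12.74 in alcohol pools, against 13.19, 13.00 and 12.93 in brine pools, a difference of -0.18 (SE 0.17) with overlapping groups.

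The other membrane arm subunits had differences between -0.12 (Ndufc2) and 0.02 (Ndufb5), with overlapping groups. Ndufb5, at 12.22, 12.73 and 12.19 in alcohol pools against 12.69, 12.30 and 12.10 in brine pools, followed the kind of pool, being 0.51 higher in the 2 pools low in cerebellar markers. Ndufc2 ran the other way, 0.25 lower in those 2 pools. The part that tissue composition plays in these differences was not tested. The 3 copies all had lower means with alcohol, with differences of -0.13 for Ndufa10l1, -0.11 for Ndufb4l1 and -0.11 for Ndufv3-ps1. Ndufv3-ps1, a pseudogene by its name, was at 13.20, 13.38 and 13.33 in alcohol pools, against 13.50, 13.46 and 13.27 in brine pools, and may share signal with its parent gene.

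Assembly factors build the enzyme and are not part of it; Ndufaf1 and Ndufaf2 had the widest ranges of the 40 genes. The roles given here are known from human cells. Ndufaf1, which joins parts of the membrane arm, was at 9.37, 9.28 and 8.27 in alcohol pools, against 9.18, 8.44 and 8.54 in brine pools. Alcohol pool 3 was the lowest of all 6 and alcohol pool 1 the highest, a range of 1.10. The difference was 0.25 (SE 0.37, interval -0.64 to 1.15), and it was 0.60 without alcohol pool 3 and 0.053 without alcohol pool 1. The dimmer row of the gene had a difference of -0.10, so its rows disagreed in direction. Ndufaf2, a relative of Ndufa12 that acts late in assembly, was at 10.49, 10.82 and 10.02 in alcohol pools, against 11.00, 10.30 and 9.85 in brine pools. Its highest values were in the 2 pools low in cerebellar markers, which averaged 0.75 above the other 4, and the difference was 0.06 (SE 0.36).
Ndufaf3 and Ndufaf4 work as a pair on the ubiquinone-reducing module. Ndufaf3 was at 10.16, 10.19 and 10.30 in alcohol pools, against 10.49, 10.69 and 10.35 in brine pools. The groups did not overlap, though alcohol pool 3 came close to brine pool 3, and the difference was -0.30 (SE 0.17, interval -0.72 to 0.12, unadjusted p = 0.137 in limma's test). The dimmer row of Ndufaf3 had a difference of -0.11. Ndufaf4 was at 10.68, 10.67 and 10.91 in alcohol pools, against 10.72, 10.67 and 10.69 in brine pools. Its groups overlapped, and the difference was 0.06 (SE 0.16).

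The files carry 9 more rows that current RefSeq symbols place in the Nduf family but that the rule does not reach, because they stand under placeholder names; 4 of them are assembly factors. Ndufaf8, which stabilises Ndufaf5, was at 7.34, 7.16 and 7.15 in alcohol pools, against 7.79, 8.03 and 7.47 in brine pools. The groups did not overlap, and the difference was -0.55 (SE 0.21, unadjusted p = 0.036 and adjusted p 1.00 in limma's test). Ndufaf6, which acts early on the membrane arm, was at 8.86, 9.06 and 8.84 in alcohol pools, against 9.41, 9.22 and 9.21 in brine pools, again without overlap. The difference was -0.36 (SE 0.17, unadjusted p = 0.076 in limma's test). Ndufaf5, which hydroxylates Ndufs7, was at 11.75, 11.86 and 11.84 in alcohol pools, against 12.01, 11.88 and 11.96 in brine pools. These groups also did not overlap, narrowly, and the difference was -0.13 (SE 0.16). Ndufaf7, an assembly factor with methyltransferase activity, was at 9.84, 10.04 and 9.87 in alcohol pools, against 10.41, 9.86 and 9.93 in brine pools, and its groups overlapped (difference -0.15, SE 0.21). Over the 8 Ndufaf genes by current symbols, 5 had a lower and 3 a higher mean with alcohol, with a median of -0.14, against a median of 0.06 over the 4 that the rule reached.

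Setting the kinds of pool apart did not bring any complex I gene past the threshold. Within the 4 pools high in cerebellar markers, 31 of the 40 genes had a lower mean with alcohol and the median difference was -0.12, and 53.0% of all features and 56.9% of those above the median level were lower. Between the 2 pools low in them, 27 genes were lower and the median was -0.07, and 53.2% and 57.0% of features were lower. In 22 genes (55%) the difference was negative in both comparisons, against 32.4% of all features and 37.8% of those above the median level. All alcohol values lay below the brine values within both kinds of pool for 12 genes (30%), against 14.4% of all features and 18.1% of those above the median level. They lay above within both kinds for 1, Ndufab1, against 10.8% and 9.09%. The 12 were the core subunit Ndufs8, 6 accessory subunits of the matrix arm (Ndufa2, Ndufa5, Ndufa6, Ndufa7, Ndufa12 and Ndufs4), Ndufa11, Ndufb7, Ndufb8, Ndufa10l1 and Ndufaf3. In the fit with a term for the 2 pools, limma gave an adjusted p under 0.05 to 0 genes (0.0% of all features). The lowest adjusted p among the 40 was 0.452, and 1 gene, Ndufb7, had an unadjusted p under 0.05 in the lower direction (4.36% of all features and 3.03% of those above the median level) and 0 in the higher (5.11% and 2.32%).

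**Figure D5:**
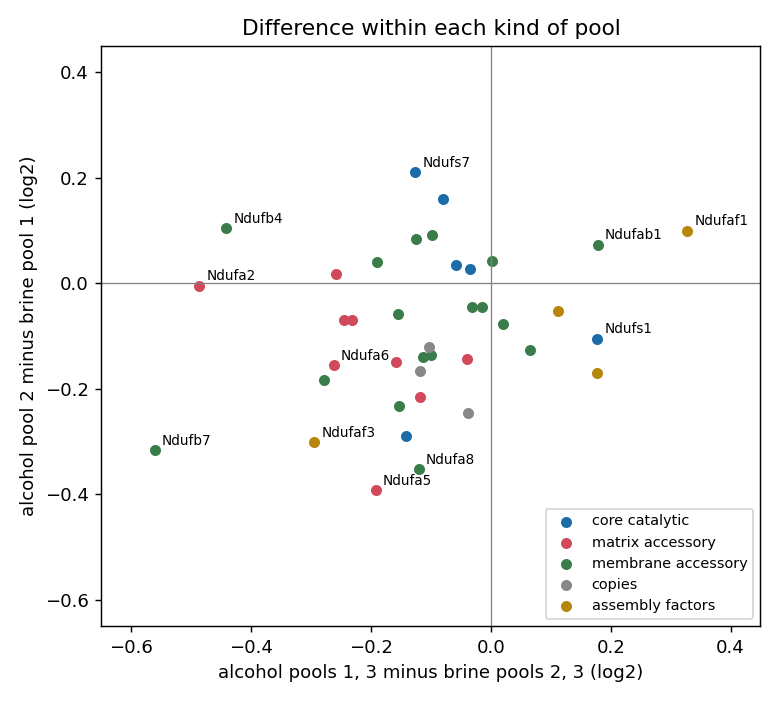
For 39 of the 40 genes, the alcohol minus brine difference in log2 intensity within the 4 pools high in cerebellar markers (horizontal axis) and between the 2 pools low in them (vertical axis), coloured by role. Both differences are negative for 22 genes, with Ndufb7 farthest left at -0.56, while Ndufs7 stands at 0.21 on the vertical axis.

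Of 4 lists of genes around complex I, 0 members passed the threshold in limma's test. The counts of lower genes in these lists stand beside 54.1% lower of all features and 59.1% of those above the median level. Of 13 assembly genes of other names, 9 had a lower and 4 a higher mean with alcohol, with a median of -0.08, against -0.02 for all features. Mtfmt, which formylates the mitochondrial initiator methionine tRNA, was at 9.62, 9.58 and 9.57 in alcohol pools, against 10.01, 9.89 and 9.75 in brine pools. Its groups did not overlap, and the difference was -0.30 (SE 0.16). Nubpl, which delivers iron-sulfur clusters to complex I, differed by -0.35 (SE 0.27), Tmem126a by -0.20 and Tmem186 by -0.13, each with overlapping groups.

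Of 13 regulators of mitochondrial biogenesis, 9 were lower and 4 higher, with a median of -0.02. The members with the smallest p went both ways: Pprc1, a PGC-1-related coactivator, differed by -0.28 (SE 0.16) without overlap, and Gabpa, the DNA-binding subunit of GABP, by 0.28 (SE 0.18) with overlap. Gabpb1, its partner, differed by -0.41 (SE 0.32). Yy1, the factor whose letters were counted above, was at 10.00, 9.99 and 10.24 in alcohol pools, against 10.22, 10.48 and 10.33 in brine pools, a difference of -0.27 (SE 0.17) in which alcohol pool 3 overlapped brine pool 1.

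Of 13 genes that report on mitochondrial content, 9 were lower and 4 higher, also with a median of -0.02. They did not move as one: the import receptor Tomm20 (-0.31, SE 0.17), the import channel Tomm40 (-0.29, SE 0.17) and the outer membrane channel Vdac3 (-0.19, SE 0.16) lay below brine in all alcohol pools. Citrate synthase (Cs), the usual matrix reference enzyme, lay above, at 13.36, 13.30 and 13.24 in alcohol pools, against 13.08, 13.14 and 13.10 in brine pools (0.19, SE 0.15). Over all features, the alcohol values all lay below the brine values in 4.36% and above them in 4.39%. Among features above the median level these shares were 4.27% and 2.10%. Of 19 enzymes and carriers that supply NADH or shuttle it, 13 were lower and 6 higher, with a median of -0.04. Got1, the cytosolic aspartate aminotransferase of the malate-aspartate shuttle, differed by 0.28 (SE 0.27), its carrier Slc25a12 by -0.31 (SE 0.35), Dld by -0.17 (SE 0.18) and Pdha1, of pyruvate dehydrogenase, by -0.16 (SE 0.21). All 4 overlapped between the groups.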

How the data were processed

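The authors deposited 1 file per array with RMA values as linear intensity; the method (robust multi-array average) is stated, per the submitters' processing notes, with neither version nor settings. Leaving out 1 entry for random-sequence control probes, 26419 of 26420 entries per file were kept. The deposited value table and averaged matrix hold 18107 features, those at an intensity of 50 or more on 3 or more arrays; the value table's intensity differed from the per-array files by at most 9.1e-07 of the value. From the averaged matrix, symbols and intensities were used. Array medians lay between 213.2 and 232.8, and 66.9% to 68.8% of features reached 50; the number of arrays limits the precision. All columns of sample values were assigned to a sample or group (0 unused).

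Deposited intensities were put on the log2 scale with no further normalization. A linear model with a single term for group was fitted to all 26419 features (limma 3.58.1, R 4.3.3), and moderated two-sided p-values from eBayes were adjusted by Benjamini-Hochberg over all features, with a threshold of 0.05. An exact permutation test of 3 against 3 cannot go below p = 0.10. The fit was run on simulated data with independent noise, whose SDs came from the 4 pools high in cerebellar markers. The split between kinds of pool was absent there, so that run does not show how the fit behaves with it. Python 3.11.15 with pandas 2.3.3, numpy 2.4.6 and matplotlib 3.10.9 made tables and plots.

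Current symbols came from RefSeq (GRCr8), matched by gene identifier for 20681 features and for 43 of the 44 rows. Ndufa3, Ndufa4, Ndufa4l2, Ndufb1, Ndufb10 and Ndufc1 were not reached by the rule and were not analysed here. The values of 1 gene of the 40 are not reported here, though totals count it. The members and lists were chosen with earlier results of these data known. The naming rule took the core subunits, all Ndufaf genes, Ndufab1, Ndufa13, up to 6 genes a direction by p, 6 by range, the 4 lowest and 3 highest in level, genes whose rows differed by over 1 (0 found), and up to 4 members by p of each further list. Ndufs4, Ndufb5, Ndufb8, Ndufb11, the rows outside the rule and others named with values were added after their values were seen. Alternatives were the value table, the averaged matrix, median centring, quantile normalization, a filter on dim features, trend and robust eBayes, array weights, the mean of a gene's rows, the replicate number as a block, a term for the 2 pools low in cerebellar markers, the other 4 pools alone, other thresholds, subunits or assembly factors alone and each pool left out. Lists without copies and with current symbols, and the count of lower genes, were added after seeing the data. Deviations of same-numbered pools from their group means correlated at -0.63, -0.68 and 0.60 for numbers 1, 2 and 3. The pools low in cerebellar markers bear unlike numbers (alcohol pool 2 and brine pool 1). These correlations therefore cannot show whether the numbers pair the pools.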

Additional observations from a re-analysis of the deposited data

How the results depend on the processing

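The count of genes past the threshold was 0 in limma under every alternative run with an adjusted p, and the smallest adjusted p of any of the 40 genes in any alternative was 0.295 (Ndufb7 with array weights). With an unadjusted p under 0.05 the count was 1 (Ndufb7), and 2 with array weights. The median difference stayed negative over all 40 genes under every alternative, and was 0.059 for the 4 assembly factors alone. Leaving out 1 pool gave medians of -0.17 to -0.05, against -0.024 to -0.0084 over all features, and 27 to 36 lower genes. With current RefSeq symbols 40 of 48 genes were lower, with a median of -0.12. Of all features 54.1% were lower, and 59.1% of those above the median level. The 48 include Ndufb11b and Ndufv2-ps1, whose mean levels of 5.15 and 5.05 lay under the floor of 5.64. They also count both Ndufs6 and Ndufs6-ps1. With the replicate number as a block the count past the threshold was 0 and the median -0.11. In that fit no gene had an unadjusted p under 0.05 in limma's test, and whether the numbers pair the pools is not known. Of 680 single-gene alternatives, 634 kept the sign and 46 reversed it. In 24 genes the sign held without any 1 pool, 22 lower and 2 higher. The matching shares of all features, for this count and for the counts of lower genes without 1 pool, were not computed. Centring each array on its median reversed genes near 0, to 0.0041 (Ndufa10), 0.016 (Ndufb6), 0.014 (Ndufs3), 0.015 (Ndufs7), 0.0021 (Ndufv1) and 0.029 (Ndufv2). Quantile normalization reversed Ndufb6 (0.00056), Ndufs7 (0.0092) and Ndufv2 (0.011), and array weights Ndufb6 (0.045), Ndufs3 (0.033) and Ndufv2 (0.0024). Ndufb6 was at 0.020 in the 4 pools high in cerebellar markers, and Ndufa1 at -0.039 with the mean of its rows. Without 1 pool the differences ran from -0.095 to 0.15 for Ndufa1, -0.11 to 0.068 for Ndufa10, -0.39 to 0.033 for Ndufa8, -0.21 to 0.37 for Ndufaf2, -0.021 to 0.098 for Ndufaf4, -0.10 to 0.017 for Ndufb2, -0.16 to 0.18 for Ndufb5 and -0.050 to 0.057 for Ndufb6. They ran from -0.29 to 0.013 for Ndufb9, -0.0066 to 0.25 for Ndufs1, -0.088 to 0.087 for Ndufs3, -0.11 to 0.0026 for Ndufs5, -0.089 to 0.077 for Ndufs7, -0.057 to 0.0011 for Ndufv1 and -0.16 to 0.12 for Ndufv2. Among genes that kept their sign, 4 stayed within 1.5 times; wider ranges were -0.32 to -0.089 for Ndufa12, -0.33 to -0.036 for Ndufv3, -0.30 to -0.095 for Ndufa7, -0.21 to -0.082 for Ndufa9, -0.18 to -0.019 for Ndufs6, -0.16 to -0.034 for Ndufa13, -0.22 to -0.012 for Ndufc2, -0.23 to -0.054 for Ndufb3 and -0.24 to -0.10 for Ndufb8. The cause of these reversals was not tested. All 40 genes lay well above the intensity floor of 50 in the rows described.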
